A study of Homo sapiens with 6 samples.

Results

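MHC class I molecules display peptides from inside a cell to CD8+ T cells. The 9 genes examined encode parts of this route, and they were taken by symbol, 9 of 9 found, from a table of 30741 genes. B2M and the heavy chains HLA-B, HLA-C and HLA-E form the molecule at the surface, TAP1, TAP2 and TAPBP load it in the endoplasmic reticulum, and PSMB8 and PSMB9 cut the peptides. The cells carry the label MOLM-13, which is a line from a human acute myeloid leukaemia known for a KMT2A fusion, with a genotype given as WT. They were kept for 48 h with 20 nM TSN (toosendanin, from the title of the series, a triterpenoid of the tree Melia toosendan) or with the solvent DMSO, in 3 libraries per group that the labels call biological replicates. The groups come from the sample titles, since the treatment label reads DMSO on all 6 samples, and the 3 columns without the name TSN were taken as DMSO because that is the only other group. A line from 1 patient grown without T cells gives RNA of the presenting cell only, and neither surface protein nor peptide was measured.

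Class I heavy chains are unstable without the light chain beta-2 microglobulin, the product of B2M, and without a peptide. In most cells their genes are held at a basal rate and raised by interferons and by NF-kB, through an interferon-stimulated response element (ISRE), a kappaB element called enhancer A, and a module bound by NLRC5 with RFX, CREB and NF-Y factors. Interferon also brings in PSMB8, PSMB9 and PSMB10, which replace the standard catalytic subunits PSMB5, PSMB6 and PSMB7 in the immunoproteasome.

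Promoter letters are shown for the member that changed (HLA-B), its neighbour of the same family that was listed near 0 (HLA-C) and the shared light chain (B2M). They are the 250 bases before the start site in RefSeq on GRCh38.p14, 5′ to 3′ on the gene's strand, at chr6:31357180-31357429 (minus strand), chr6:31272093-31272342 (minus strand) and chr15:44711267-44711516 (plus strand). They are reference letters, not those of the alleles in these cells. Capitals mark matches on either strand to GGGANTCC (the core of the kappaB element of enhancer A), TTCNNTTTC (an ISRE core), TGACGNNA (a CREB-type box) or CCAAT (the NF-Y box).
HLA-B: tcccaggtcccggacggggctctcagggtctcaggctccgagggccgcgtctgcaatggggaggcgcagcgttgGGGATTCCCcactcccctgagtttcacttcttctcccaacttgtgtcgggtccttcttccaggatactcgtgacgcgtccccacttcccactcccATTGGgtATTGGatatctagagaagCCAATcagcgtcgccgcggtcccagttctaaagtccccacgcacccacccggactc
HLA-C: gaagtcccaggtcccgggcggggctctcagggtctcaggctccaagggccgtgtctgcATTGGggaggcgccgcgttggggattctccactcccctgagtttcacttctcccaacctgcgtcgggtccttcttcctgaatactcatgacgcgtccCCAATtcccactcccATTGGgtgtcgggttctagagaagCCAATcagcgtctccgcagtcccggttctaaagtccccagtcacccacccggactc
B2M: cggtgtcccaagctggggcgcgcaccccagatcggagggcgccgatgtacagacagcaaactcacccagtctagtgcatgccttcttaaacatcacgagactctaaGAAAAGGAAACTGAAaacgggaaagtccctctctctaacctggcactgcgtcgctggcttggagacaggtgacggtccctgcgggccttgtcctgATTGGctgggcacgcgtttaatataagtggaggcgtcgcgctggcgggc
HLA-B held the kappaB letters from -176 to -168 relative to the start, where matches on the 2 strands overlap. These letters stood in 3.85% of 35116 promoter windows of the same length, and in 0.367% when a further G before and C after were required, which HLA-B also has. B2M held overlapping ISRE cores on the other strand, a motif found in 6.88% of windows, or in 3.02% with a further T before it, which B2M also has. CCAAT, present in 32.0% of windows, matched in each of the promoters of HLA-B, HLA-C and B2M, and TGACGNNA (6.55% of windows) in none of them. Only exact letters were searched. TGACG itself stands in each of these windows, with a letter other than A at the last place of the pattern. Variants of the kappaB and ISRE cores were not counted either, so a missing match does not show that an element is missing. HLA-B and HLA-C were identical at 226 of 246 aligned bases (91.9%), yet the kappaB letters searched did not occur in the HLA-C window. Between the same neighbouring letters, HLA-C has gggattct where HLA-B has gggattcc, which is a near match that the search does not count. Whether these letters bear on the listed values was not tested. A match describes letters and shows no binding.

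Values are in FPKM, which divides fragments by exon length and library total, so levels can be set side by side per length. B2M had the highest listed values of the 9, with HLA-B next, and the other 7 (HLA-C, HLA-E, TAP1, TAP2, TAPBP, PSMB8 and PSMB9) stayed under 1 FPKM in all 6 libraries. All members but B2M lie in the MHC on chromosome 6, where listed values were low for nearly all genes, so this order is one of listed values and the level of HLA-B is read only between libraries. The filter for testing, at least 1 FPKM in at least 3 libraries, was therefore met by 2 of the 9 members. Estimated depth was 37151795 to 50408206 fragments per library, the lowest near the best fit to whole fragments. At that depth 1 fragment on 1 kb of exon is worth 0.0198 to 0.0269 FPKM. In bulk RNA, fewer cells of a kind and less RNA per cell cannot be told apart. TSN 3 had the lowest median of tested genes, 2.97 as log2(FPKM + 1), and the other 5 libraries had 3.30 to 3.46. Myeloid genes were present. MPO, an enzyme of myeloid granules, fell from 3567 ± 135 to 2020 ± 27.4 FPKM (SD, n = 3; log2 fold change -0.82, limma adjusted p = 0.0221). SPI1, a myeloid transcription factor, lay higher in every TSN library (94.5 to 182 FPKM against 64.4 to 85.7 FPKM) without passing the test (limma adjusted p = 0.138). So did the marker CSF1R (2.77 to 4.06 FPKM against 2.03 to 2.50 FPKM, limma adjusted p = 0.0936). HOXA9 and MEIS1, which KMT2A fusions are known to drive, were low. HOXA9 had 0.613 to 0.663 FPKM in DMSO and 1.065 to 1.134 FPKM in TSN (limma adjusted p = 0.0638). MEIS1 had 0.14 to 0.469 FPKM over all libraries, and CD68 reached at most 0.0255 FPKM. Of 8 tested myeloid markers, 3 lay apart with TSN higher and 1 with TSN lower, beside 16.2% and 22.9% of all tested genes.

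**Figure D1:**
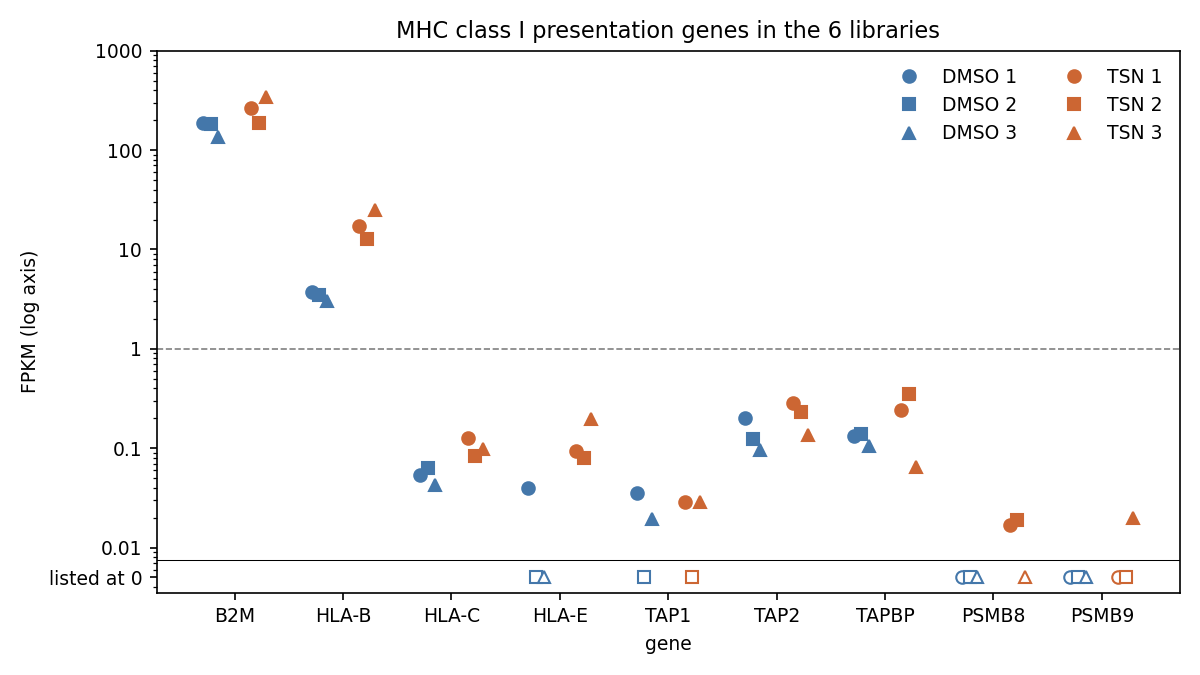
FPKM of the 9 class I presentation genes on a log axis, with 1 point per library, blue for DMSO and orange for TSN, and open points in the lowest row for values listed at 0. The dashed line marks 1 FPKM. B2M and HLA-B lie above it in all 6 libraries and the other 7 genes below it, and only for HLA-B among these 2 are all TSN points above all DMSO points.

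HLA-B, a classical heavy chain (ENSG00000234745, chromosome 6, 31353875 to 31357179, minus strand), rose after TSN. It stood at 3.74, 3.51 and 3.04 FPKM in DMSO 1, 2 and 3 and at 17.1, 12.7 and 24.8 FPKM in TSN 1, 2 and 3. The lowest TSN value was 3.38 times the highest DMSO value, so the groups did not overlap, as in 16.2% of all 11440 tested genes with TSN higher (22.9% with TSN lower, 39.2% in either direction). Means were 3.43 ± 0.361 and 18.2 ± 6.16 FPKM (SD, n = 3), a ratio of 5.30. On the log2(FPKM + 1) scale, which understates changes of low genes, the fold change was 2.07 ± 0.25 SE with a limma adjusted p of 0.00564. At the threshold used, an adjusted p under 0.05, 14.9% of all tested genes were called, 7.71% higher and 7.20% lower. The log2 fold change was 1.76 to 2.35 over 21 alternatives, and the call was lost in 2 of them, with a replicate block (limma adjusted p = 0.104) and without TSN 1 when the filter was reapplied to the libraries kept (limma adjusted p = 0.0598). In GENCODE 29, 18.9% of the exon bases of HLA-B are shared with HLA-C or AL671883.2, so a part of its fragments cannot be assigned with certainty.

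B2M, the light chain shared by all class I molecules (ENSG00000166710, chromosome 15, 44711517 to 44718145, plus strand), did not pass the test. Its values were 186.8, 185.2 and 137.0 FPKM in DMSO 1, 2 and 3 and 264.9, 185.5 and 341.1 FPKM in TSN 1, 2 and 3. TSN 2 lay within the DMSO range, and DMSO 3 and TSN 3 were the lowest and the highest. Means were 169.7 ± 28.3 and 263.8 ± 77.8 FPKM (SD, n = 3), and the log2 fold change was 0.60 ± 0.26 SE with a limma adjusted p of 0.173. Leaving out TSN 2 gave 0.84 with a limma adjusted p of 0.0445, and a fit without replicate 3 of both groups, added once the values were known, gave 0.25 with a limma adjusted p of 0.363. B2M and HLA-B shared the order TSN 3, TSN 1, TSN 2 within the TSN group, and TSN 3 is also the library with the lowest median level. The part of that library's composition in these values was not tested.

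Dividing HLA-B by B2M within each library removes what the library scales for both genes alike. This ratio, and those of PSMB10 (the third inducible proteasome subunit) and NLRC5 (the class I transactivator) to B2M, were chosen after the values were seen. Per 100 FPKM of B2M there were 2.00, 1.90 and 2.22 FPKM of HLA-B in DMSO 1, 2 and 3 and 6.46, 6.82 and 7.28 FPKM in TSN 1, 2 and 3. The spread within TSN was thus small beside that of either gene alone, where the highest TSN value was 1.96 times the lowest for HLA-B and 1.84 times for B2M. The mean ratio went from 2.04 ± 0.162 to 6.85 ± 0.412 (SD, n = 3), 3.36 times as much. PSMB10 per 100 FPKM of B2M was lower in every TSN library than in any DMSO library, 5.89 ± 0.221 FPKM in DMSO and 4.54 ± 0.419 FPKM in TSN (SD, n = 3). NLRC5 per 100 FPKM of B2M was likewise lower, 10.4 ± 2.30 FPKM in DMSO and 5.62 ± 2.62 FPKM in TSN (SD, n = 3). The NLRC5 groups nearly met, at 8.87 FPKM in DMSO 2 and 8.57 FPKM in TSN 2. For each of the 3 ratios the 2-sided exact permutation test gave p = 0.10, the smallest that 3 against 3 libraries allow. A ratio shows unequal change of the 2 genes and not that either was constant. The mean of B2M was itself 1.56 times as high in TSN, and that of PSMB10 was 10.04 FPKM in DMSO and 12.08 FPKM in TSN. The share of other genes that were lower per FPKM of B2M was not counted.

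**Figure D2:**
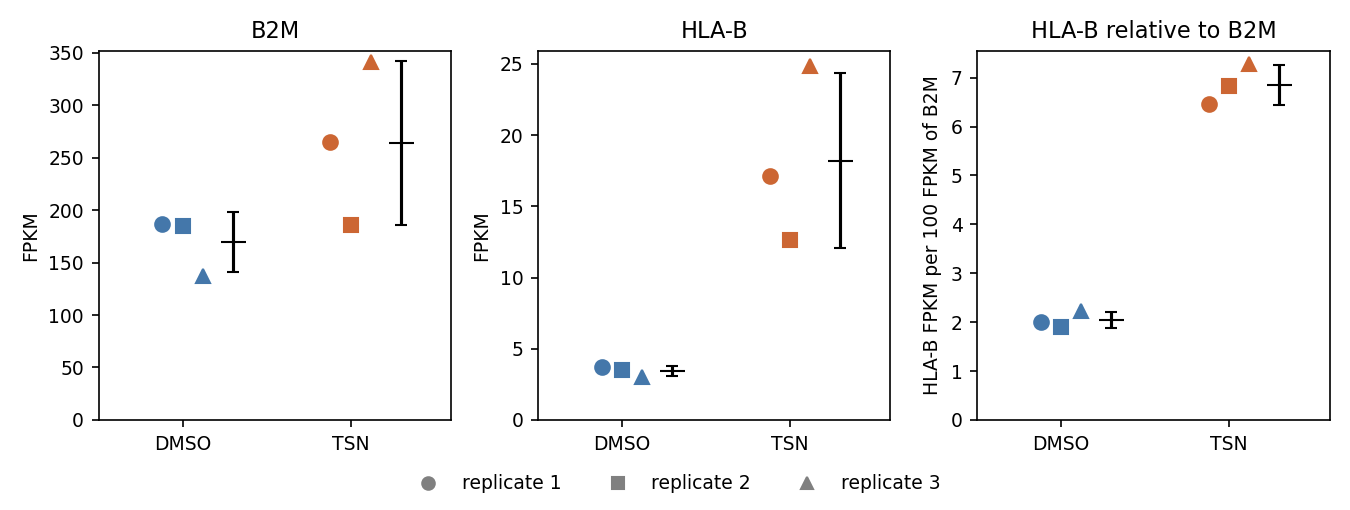
B2M in FPKM (left), HLA-B in FPKM (middle) and HLA-B FPKM per 100 FPKM of B2M (right), with 1 point per library and a bar for the mean ± SD of 3 libraries. B2M overlaps between groups at TSN 2, whereas HLA-B and the ratio (1.90 to 2.22 in DMSO, 6.46 to 7.28 in TSN) do not.

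The non-classical heavy chain HLA-E and the classical heavy chain HLA-C were listed near the floor. HLA-E, which shows leader peptides of other class I chains to natural killer cells (chromosome 6, 30489509 to 30494194), had 0.0393, 0 and 0 FPKM in DMSO 1, 2 and 3 and 0.0934, 0.0798 and 0.198 FPKM in TSN 1, 2 and 3. HLA-C (chromosome 6, 31268749 to 31272092) had 0.0532, 0.0639 and 0.043 FPKM in DMSO and 0.127, 0.0841 and 0.0986 FPKM in TSN. For each of these 2 genes all TSN values lay above all DMSO values, on very few fragments. The same held for 12.6% of the 9200 genes that were under 1 FPKM in all libraries and above 0 in at least 4, a class that holds 5 of the 7 low members. The smallest whole fragment numbers in the proportions of the 6 values, in the same order of libraries, were 4, 5, 3, 12, 7 and 7 for HLA-C and 4, 0, 0, 12, 9 and 19 for HLA-E, or a common multiple of these. In a fit with no filter their limma adjusted p were 0.443 and 0.197. Of 50-base stretches of their longest coding transcript in GENCODE 29, 6.71% for HLA-C and 5.13% for HLA-E also occur in transcripts of other genes.

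HLA genes in the table numbered 11, and 10 of them were under 1 FPKM in every library. HLA-B was the exception. The class II genes HLA-DRB1, HLA-DQB1 and HLA-DMB reached at most 0.0299 FPKM. The highest value of any HLA gene other than HLA-B was 0.269 FPKM, for HLA-U in DMSO 1.

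The transporter and loading genes were also listed near the floor. TAP2, a chain of the peptide pump (chromosome 6, 32821831 to 32838739), had 0.202, 0.124 and 0.0956 FPKM in DMSO and 0.282, 0.233 and 0.137 FPKM in TSN, and the groups overlapped. TAP1, its partner (chromosome 6, 32845209 to 32853704), had 0.0358, 0 and 0.0193 FPKM in DMSO and 0.0284, 0 and 0.0284 FPKM in TSN, on 4 fragments or fewer per library (or a common multiple) by the same count. TAPBP, or tapasin, which ties the pump to the waiting heavy chain (chromosome 6, 33299694 to 33314078), had 0.133, 0.139 and 0.104 FPKM in DMSO and 0.245, 0.35 and 0.0641 FPKM in TSN, with the lowest value of all in TSN 3. No direction can be read for these 3 genes, and with no filter their limma adjusted p were 0.583, 0.985 and 0.587 for TAP2, TAP1 and TAPBP.

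The immunoproteasome members had almost no fragments. PSMB8 (chromosome 6, 32840717 to 32844679) was listed at 0 in the 3 DMSO libraries and in TSN 3, and at 0.0167 and 0.019 FPKM in TSN 1 and TSN 2. PSMB9 (chromosome 6, 32854192 to 32859851) was listed at 0 in 5 libraries and at 0.0198 FPKM in TSN 3. These values are 1 fragment each by the same count, or a small multiple, so no fold is given. PSMB10, the third inducible subunit, lies on chromosome 16 (67934506 to 67936850) and was well above the floor, with 11.4, 11.01 and 7.74 FPKM in DMSO 1, 2 and 3 and 10.9, 8.48 and 16.9 FPKM in TSN 1, 2 and 3. The groups overlapped (log2 fold change 0.21 ± 0.27 SE, limma adjusted p = 0.642), and without TSN 3 the sign turned, to -0.04. Exons of PSMB10 share 34.8% of their bases with AC040162.1.

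All 7 members listed near the floor lie in the classical MHC of chromosome 6, taken as the 3.37 Mb that end with TAPBP, and low values were general there. Of 81 protein-coding genes listed in that stretch, 77 were under 1 FPKM in every library and 4 (4.94%) had a mean of at least 1 FPKM. Those 4 were HLA-B, CCHCR1, TCF19 and AGPAT1. Over all chromosomes 62.1% of 15535 listed protein-coding genes had such a mean, and in the next 3.37 Mb after TAPBP it was 60.0% of 50 genes. In the 3.37 Mb before the stretch, which holds many histone genes, the share was 30.2% of 43 genes.

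Genes of the stretch that nearly every cell uses were also listed under 1 FPKM in every library. These examples were chosen after their values were seen. TUBB, a major beta-tubulin, had 0 to 0.064 FPKM, CSNK2B, the regulatory subunit of casein kinase 2, 0 to 0.0093 FPKM, the chromatin reader BRD2 0.0087 to 0.15 FPKM, and RPS18, a protein of the small ribosomal subunit, 0.428 to 0.93 FPKM. RPS18 thus lay above the 7 low members, and the other 3 examples within their range. A value near 0 is therefore not read as absence of RNA for any of the 7 members, and no statement is made on their change. Of the 50-base stretches of PSMB8, 0% were shared with another gene of GENCODE 29, of TAP1 1.07%, of TAPBP 5.99%, of PSMB9 12.1% and of TAP2 35.8%. Alternative haplotypes of the MHC were not used here, and their part in the low values was not tested.

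**Figure D3:**
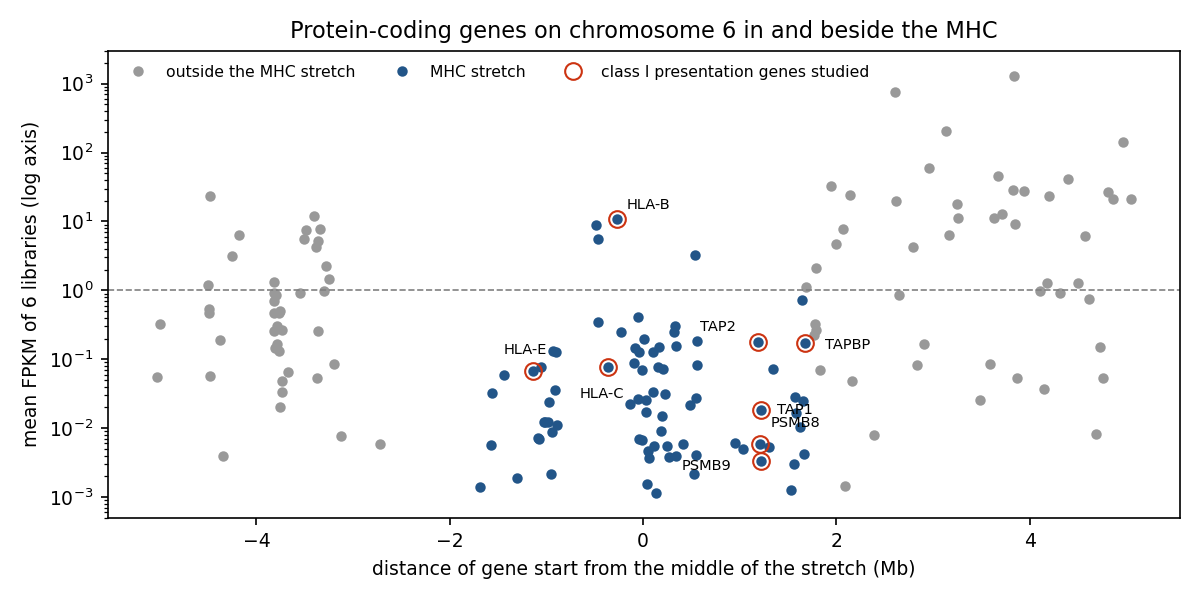
Mean FPKM over 6 libraries, on a log axis, of listed protein-coding genes against the distance of their start from the middle of the MHC stretch, with that stretch in dark blue and the 8 class I presentation genes inside it ringed in red. Inside the stretch 77 of 81 genes lie under the dashed line at 1 FPKM in every library, and HLA-B is the ringed gene above it.

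CCHCR1, a centrosome protein gene near HLA-C, was also called higher, with 5.92, 5.82 and 5.62 FPKM in DMSO 1, 2 and 3 and 12.1, 11.1 and 13.3 FPKM in TSN 1, 2 and 3. Its log2 fold change was 0.95 ± 0.14 SE with a limma adjusted p of 0.00868, and the call was lost without DMSO 1, DMSO 2, DMSO 3 or TSN 1. No difference passed the test for TCF19 (limma adjusted p = 0.197) or the lipid enzyme AGPAT1 (limma adjusted p = 0.209). HLA-B had the largest log2 fold change of these 4 genes.

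Genes that act before and after loading showed no call. Of 16 further genes of peptide trimming and loading, 14 were listed, 11 tested and 0 called by limma in either direction. Over all tested genes 14.9% were called, and on so few genes no difference from that share is read. Their median log2 fold change was -0.01 beside -0.10 over all tested genes. The chaperone of the loading complex CALR, at 1688 ± 65.0 and 1334 ± 95.1 FPKM (SD, n = 3), did not pass (log2 fold change -0.34 ± 0.16 SE, limma adjusted p = 0.204). All 3 TSN values of CALR were below DMSO, as in 22.9% of all tested genes. Its partner PDIA3 stood at 139.6 ± 4.4 and 140.8 ± 26.7 FPKM (limma adjusted p = 0.985). CANX, which folds new heavy chains, was listed at 0.0848 to 0.39 FPKM although it lies on chromosome 5. It was not alone outside the MHC. PSME2 (0.369 to 0.99 FPKM) and IRF9 (0 to 0.0294 FPKM), both on chromosome 14 and named for their low values, were also under 1 FPKM in all libraries. Over all chromosomes this held for 5382 of 15535 listed protein-coding genes. The standard catalytic subunits PSMB5 (-0.04, limma adjusted p = 0.941), PSMB6 (0.35, limma adjusted p = 0.541) and PSMB7 (0.46, limma adjusted p = 0.279) did not pass either, and in each of them TSN 3 was the highest of the 6 libraries.

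Calls among factors known to drive class I genes went in both directions. Of 18 tested, 3 rose and 2 fell, beside 7.71% higher and 7.20% lower among all tested genes. On so few genes no difference from those shares is read. NLRC5, the class I transactivator, had 17.2, 16.4 and 17.8 FPKM in DMSO and 12.4, 15.9 and 12.2 FPKM in TSN. All TSN values were below DMSO, as in 22.9% of all tested genes. The difference did not pass the test (log2 fold change -0.33 ± 0.15 SE, limma adjusted p = 0.191). IRF8, a myeloid interferon regulatory factor, rose from 2.62 to 12.1 FPKM in the mean (limma adjusted p = 0.00134). NFKB2, an NF-kB subunit, rose from 46.5 to 150.3 FPKM (limma adjusted p = 0.00186). IRF1, which binds the ISRE, had 3.08, 3.25 and 2.76 FPKM in DMSO and 5.17, 4.64 and 5.91 FPKM in TSN, with a log2 fold change of 0.63 ± 0.14 SE and a limma adjusted p of 0.0336. RELA, the NF-kB subunit with a strong activation domain, fell by 0.58 (limma adjusted p = 0.0259) and NFYB, a subunit that binds CCAAT, fell by 0.62 on the log2 scale (limma adjusted p = 0.0379). The calls of IRF1, RELA and NFYB were lost without DMSO 1, DMSO 2, DMSO 3 or TSN 1, whereas IRF8 and NFKB2 kept theirs in each of these fits on the same 11440 genes.

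Receptors and ligands of interferon gave 1 call, among 7 tested genes of reception, beside 14.9% of all tested genes called in either direction. That count is not read as a difference from that share. IFNGR1, a chain of the interferon gamma receptor, fell by 0.68 on the log2 scale, from 54.8 ± 2.51 to 34.1 ± 4.92 FPKM (SD, n = 3; limma adjusted p = 0.0288), a call lost without DMSO 1, DMSO 2, DMSO 3 or TSN 1. None of the other 6 tested genes of reception passed by limma. Of the ligands, IFNB1 was listed at 0, 0.0572 and 0 FPKM in DMSO and 1.16, 0.215 and 0.758 FPKM in TSN, below the filter, and IFNA1 at 0.0547 to 0.427 FPKM in DMSO and 0.232 to 0.453 FPKM in TSN. Among 20 interferon-stimulated genes, a list whose rise was known from earlier results of these data, 13 were tested, 9 rose and 1 fell. Over all tested genes 7.71% were called higher and 7.20% lower. The antiviral gene OASL had 0.122, 0.286 and 0.231 FPKM in DMSO and 3.54, 2.65 and 3.00 FPKM in TSN (limma adjusted p = 0.00171), while IFI6 rose by 2.51 (limma adjusted p = 0.00633) and MX2 fell by 0.82 on the log2 scale (limma adjusted p = 0.0299). The MX2 call was lost without the filter and without DMSO 1, DMSO 2, DMSO 3 or TSN 1. OASL and 2 others of the 13 were under 1 FPKM in all DMSO libraries and so passed the filter only through TSN.

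Calls among known brakes on class I and among class I-like genes also went both ways. Of 6 tested brakes 2 rose and 1 fell, and of 4 tested class I-like genes 1 rose and 1 fell. Among all tested genes 7.71% were called higher and 7.20% lower, and on so few genes no difference from those shares is read. EZH2 and EED, subunits of the Polycomb complex that silences class I genes in some cancers, rose by 0.71 ± 0.15 SE and 0.63 ± 0.14 SE on the log2 scale (limma adjusted p = 0.0273 and 0.0311). WWP2, a ubiquitin ligase that acts on class I molecules, fell by 0.73 (limma adjusted p = 0.0212), and these 3 calls were lost without DMSO 1, DMSO 2, DMSO 3 or TSN 1. The other 3 brakes were not called. They were the Polycomb subunit SUZ12 (0.07, limma adjusted p = 0.896), SUSD6 (0.21, limma adjusted p = 0.694) and TMEM127 (-0.35, limma adjusted p = 0.213). ULBP2, a ligand of the natural killer receptor NKG2D, was at 0.121 to 0.337 FPKM in DMSO and 1.53 to 1.77 FPKM in TSN (limma adjusted p = 0.00409), so it passed the filter only through TSN. CD1D, which presents lipids with B2M, fell from 1.28 ± 0.159 to 0.603 ± 0.0779 FPKM (SD, n = 3; limma adjusted p = 0.0331). That call was lost in most alternatives, among them each fit without DMSO 1, DMSO 2, DMSO 3, TSN 1 or TSN 2. CD74, the invariant chain of class II, went from 0.245 to 0.487 FPKM in DMSO to 2.72 to 3.47 FPKM in TSN (limma adjusted p = 0.00253), so it too passed the filter only through TSN, whereas CIITA, the class II transactivator, stayed at or under 0.0754 FPKM in all libraries.

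**Figure D4:**
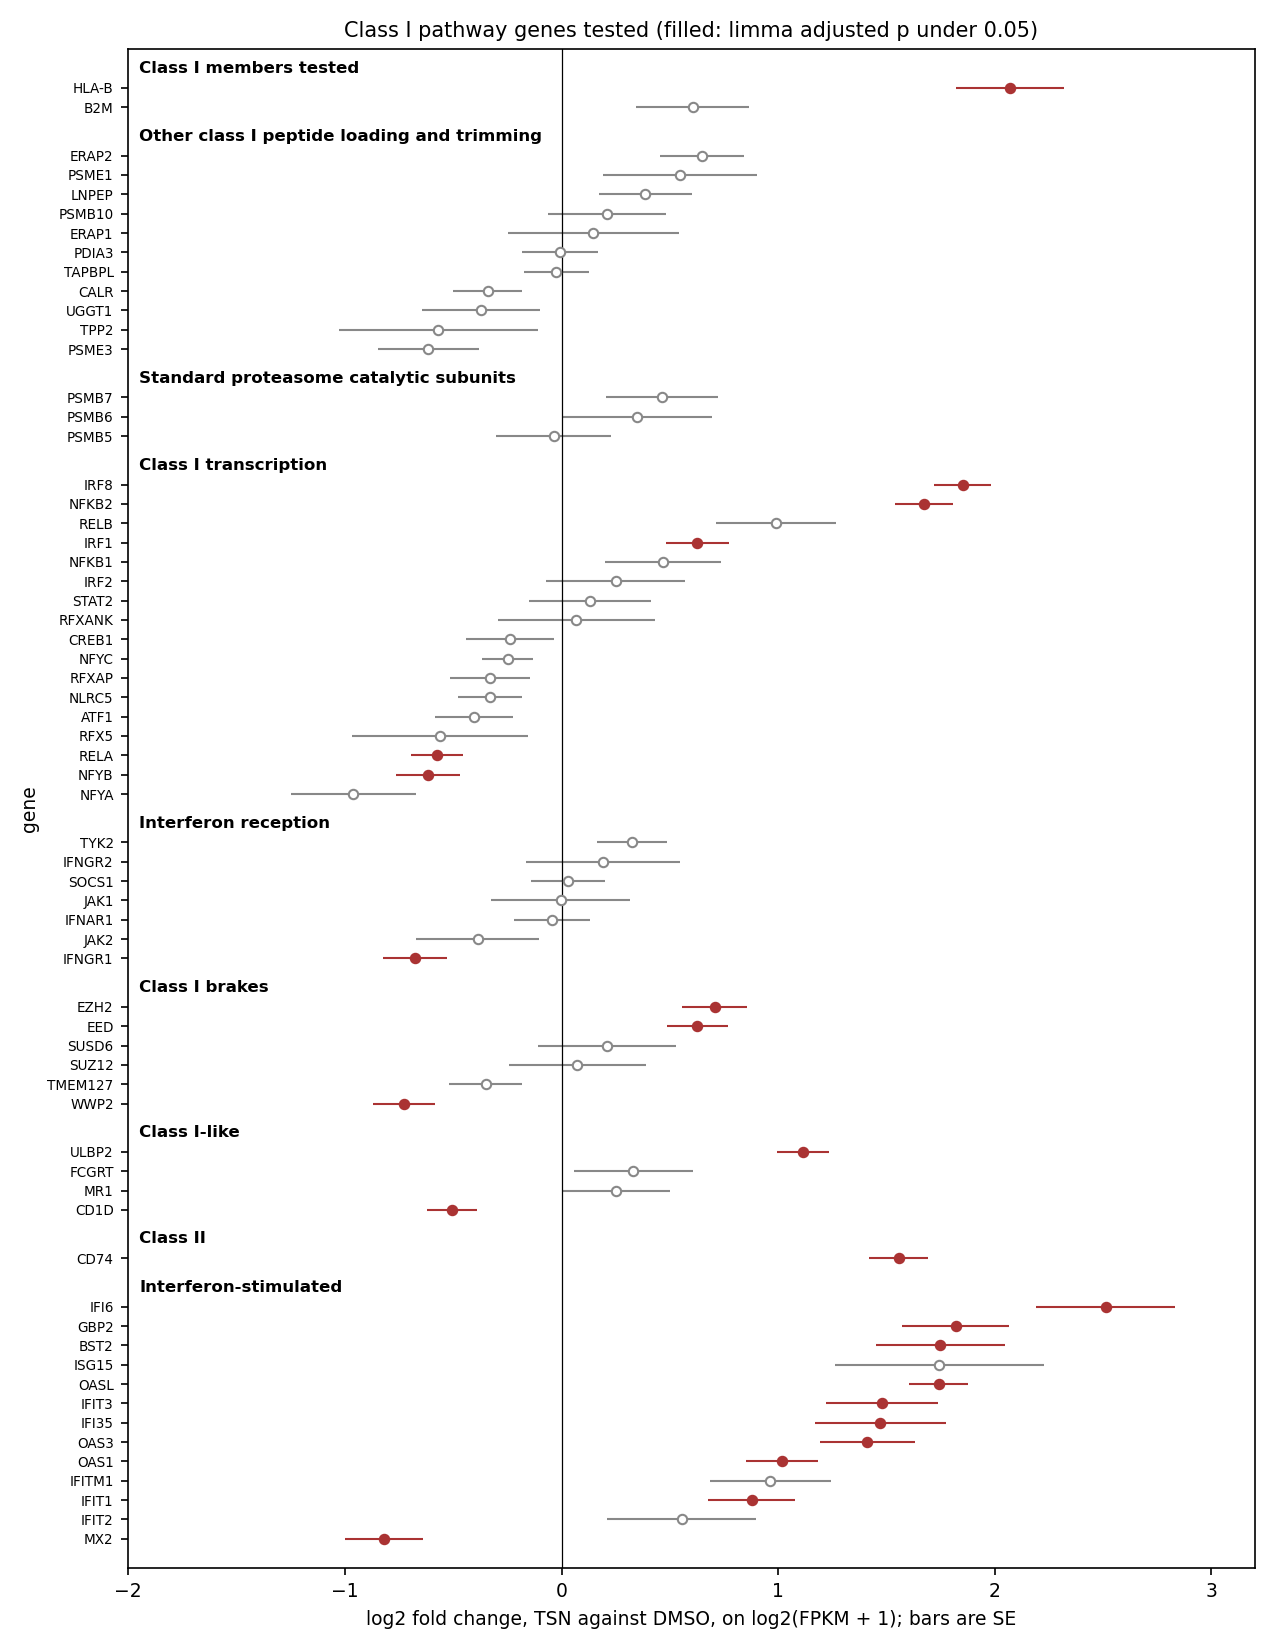
Log2 fold change of TSN against DMSO on log2(FPKM + 1), with SE, for the 2 members and the 63 other class I pathway genes tested, less 1 uncalled gene that is not drawn, grouped by role. Filled points passed a limma adjusted p of 0.05: 16 of the 63 were higher and 6 lower, beside 7.71% and 7.20% of all tested genes. Of the 16, 9 are interferon-stimulated genes, a list whose rise was known from earlier results of these data. Also, 5 of the 16 were under 1 FPKM in all DMSO libraries. The 16 are therefore not read as more than the share of all genes.

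Over the 63 tested genes of these lists, 16 rose and 6 fell, beside 7.71% and 7.20% of all tested genes. Of the 16, 7 lie outside the interferon-stimulated list, whose rise was known beforehand, and 5 were under 1 FPKM in all DMSO libraries. In the same libraries the summed level of lymphoid markers was 27.3 to 34.0 FPKM in DMSO and 84.4 to 215.5 FPKM in TSN, mostly NKG7 (20.6 to 26.8 and 76.8 to 199.7 FPKM). CD3D also rose, from 0.972 to 2.36 FPKM in the mean (limma adjusted p = 0.0251), while CD3E was at or under 0.194 FPKM in all libraries. Epithelial and fibroblast markers summed to 11.1 to 12.7 and 18.9 to 37.2 FPKM, with KRT18 rising from 5.58 to 21.3 FPKM in the mean (limma adjusted p = 0.0135) and CDH1, DCN and COL1A1 at or under 0.0582 FPKM. KRT8 had means of 2.97 and 1.83 FPKM (limma adjusted p = 0.149) and EPCAM of 3.60 and 3.71 FPKM (limma adjusted p = 0.876). Erythroid and megakaryocytic markers summed to 1.38 to 2.14 and 3.05 to 3.45 FPKM. Myeloid markers summed to 3559 to 3822 and 2182 to 2255 FPKM, mostly MPO. The part of these marker differences in the class I values was not tested.

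Many other genes had profiles across the 6 libraries like those of the members. Among 7329 tested genes with a mean of at least 5 FPKM, 408 reached a Pearson r of 0.95 with the mean standardised level of B2M and HLA-B, and the closest were JUNB, SLC50A1, UBE2B (r = 0.999 each), S100A10 and DES (0.998 each). For B2M alone 434 genes did, and the closest were POMP, a proteasome assembly factor (0.998), PTOV1 and TMEM14A (0.997 each). The points are 6 libraries in 2 groups that share depth and composition within a library, so these values are descriptions.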

How the data were processed

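RNA of 6 libraries was sequenced. The authors deposited 1 table of FPKM values per gene and library, a unit inferred here from the values. The submitters' processing notes name GRCh38 and DESeq2 1.26.0. Aligner, counting tool, strand setting and annotation: not given in the sources used here. Per library, low FPKM of single-exon genes times exon length fell on whole fragments (tolerance 0.1) in 96.7% to 97.3% of values, which gave the depth estimates. The depth was chosen to make this share high, so the share does not check it. The lowest depth near the best share was taken, and a multiple of it could give whole fragments too. FPKM cannot show a change in total RNA per cell.

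For the tests, log2(FPKM + 1) values entered limma 3.58.1 (R 4.3.3), using its trend and robust options. A gene needed 1 FPKM or more in 3 libraries or more, which 11440 did, and p-values were Benjamini-Hochberg adjusted over those. The fit was tested on simulated data. Exon lengths and overlaps came from GENCODE 29 (93.7% of genes matched), gene places and promoters from RefSeq GRCh38.p14. The kappaB and ISRE motifs were shortened to their cores after longer forms had been searched, and the shares of both forms are printed. Python 3.11.15, pandas 2.3.3, scipy 1.17.1, biopython 1.88 and matplotlib 3.10.9 were used. The members and lists were chosen with earlier results of these data known. All members were named, with the genes of lowest adjusted p, or else of highest level, from each list, and NLRC5, CIITA, IRF1 and proteasome subunits, except for items that are not reported here. DMSO 1 and DMSO 2 differed beyond counting error (chi-square of 10.2 per degree of freedom on reconstructed fragments), so all 6 libraries were kept. Nothing shows that libraries came from separate cultures beyond the label, so p-values measure the spread between these libraries. Alternatives are given at the end.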

Additional observations from a re-analysis of the deposited data

How the results depend on the processing

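HLA-B was called higher in 19 of 21 alternatives. The members called higher, 1 in all, became 2 without TSN 2, where B2M joined, 0 with the replicate block, and 0 without TSN 1 with the filter reapplied (0 to 2 over all fits without 1 library). Same-numbered libraries did not pair: their deviations from the group means correlated at -0.32, -0.65 and -0.83. Libraries of different number ran from -0.76 (DMSO 1 with TSN 2) to 0.87 (DMSO 3 with TSN 2), with 0.74 for DMSO 1 with TSN 3. Over tested genes TSN 2 correlated with DMSO 3 at 0.951 and with TSN 3 at 0.913. A part of the spread was thus common to both groups, and its source was not tested. With the replicate block every count of calls (members, 63 pathway genes, all genes) was 0 in each direction. Genes called higher numbered 882, and 523 without the filter, 446 when a mean of 5 FPKM was required, 1712 without replicate 3 of both groups and 203 to 1481 without 1 library. With the filter also reapplied they numbered 240, 202 and 294 without DMSO 1, 2 and 3, and 23 without TSN 1. Genes called lower numbered 824, and 254 without the filter, 1587 without replicate 3 of both groups and 56 to 1342 without 1 library. With the filter reapplied they numbered 72, 45 and 143 without DMSO 1, 2 and 3, 1 without TSN 1 and 1288 without TSN 3. Of the pathway genes, 16 were higher, 9 at the mean of 5 FPKM, 29 without replicate 3 of both groups, 6 to 23 without 1 library, and 6, 6, 7 and 1 without DMSO 1, 2, 3 and TSN 1 with the filter reapplied. Of these genes 6 were lower, 0 without the filter and 0 to 7 without 1 library. A fit on fewer libraries has fewer degrees of freedom. After median-ratio scaling the centre of all log2 fold changes shifted by 0.10.

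Some genes that were not called changed sign, at the same values with or without the filter reapplied. PSMB10 was at -0.039 without TSN 3 (-0.039 to 0.42 without 1 library) and -0.20 without replicate 3 of both groups, where PSMB6 was at -0.18. PSMB5 was at 0.081 after median-ratio scaling, and at 0.055, 0.023, 0.027 and 0.16 without DMSO 1, DMSO 2, TSN 1 and TSN 2 (-0.29 to 0.16 without 1 library). PDIA3 was at 0.11 after that scaling, 0.16 without replicate 3 of both groups, and 0.012 and 0.16 without DMSO 2 and TSN 3 (-0.11 to 0.16 without 1 library). The causes were not tested. Of 17 called genes that the text names from the class I lists and the MHC stretch, 17 were still called with pseudocounts of 0.1 or 0.01 and with plain moderation. Of these, 8 were called without the filter and 1 without TSN 1 with the filter reapplied. Calls of cell type markers (MPO, CD3D, KRT18) and of genes of like profile were not followed over the alternatives. Dropping replicate 3 of both groups and reapplying the filter were choices made once the values were known.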
